A study of Homo sapiens with 16 samples.

Results

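The comparison described here asks whether silencing of Gemin5 changed how much of each mRNA was found on polysomes relative to how much of it was in the cytoplasm. All 16 libraries of the series enter it, and it covers the 14958 of 58302 listed gene identifiers that had enough reads to be tested. For each gene the quantity was the log2 change in Polysome (siRNAG5 against Ctrl) minus the log2 change in Input, called the difference between the fractions below. A negative value means that the ratio of Polysome to Input was lower in siRNAG5 than in Ctrl. The genes tested were not chosen by this difference.

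The cells were HEK293, a widely used human line derived from embryonic kidney. Gemin5 was silenced in them with 100 nM of an siRNA, a synthetic RNA duplex whose guide strand pairs with the target mRNA and leads to its destruction, delivered with Lipofectamine 2000 (siRNAG5). Ctrl cells received no Gemin5 siRNA. The sample labels call them untreated whereas the methods of the study describe a control siRNA, so transfection as such and loss of Gemin5 cannot be told apart here. From each treatment, RNA was taken from cytoplasmic lysates (Input) and from the pooled heavy fractions of sucrose gradients, which hold mRNAs bound by several ribosomes (Polysome), and polyadenylated RNA was sequenced by a stranded protocol. Each of the 4 groups had 4 libraries, with between 11145324 and 24511299 reads counted on genes per library. The methods of the study call the 4 libraries of a group biological replicates.

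Gemin5 is an RNA-binding protein of the survival of motor neurons (SMN) complex, which loads Sm proteins onto small nuclear RNAs, and part of it is bound to ribosomes. An mRNA that is initiated often carries many ribosomes and sediments with the polysomes, whereas an mRNA whose initiation is held back moves to the light fractions while its amount in the lysate need not change. The best-known group with such switchable translation are the TOP mRNAs, which encode ribosomal proteins and elongation factors and start with a C followed by a run of pyrimidines (the 5′ terminal oligopyrimidine tract) that is read by the mTOR pathway.

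The libraries carried the markers of HEK293, with reads on all 6 listed markers in each group. Liver genes, which are not known for this line, stood apart in some libraries. Their summed level was 6.29, 6.04, 163 and 155 CPM (reads scaled to a library size common to all) in Input Ctrl 1 to 4 and 150 to 265 in Polysome Ctrl, against 7.66 to 9.22 in Input siRNAG5 and 14 to 24.7 in Polysome siRNAG5, where 18 and 20 of the 42 listed genes had any read. The 34 liver genes tested had median changes of -6.55 in Input and -7.03 in Polysome, their difference of -0.67 rests on libraries at or near 0 and is not read, and the part of these reads in other results was not tested. Erythroid markers summed to at most 3.14 CPM (1 of 12 tested, -0.33), and brain markers to 36.1 to 43.4 in Input and 63.3 to 73.4 in Polysome over both treatments (5 of 16 tested, median -0.43, and -0.0967 without Input siRNAG5 2).

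No gene passed the test of the difference. With edgeR's quasi-likelihood test over all 16 libraries, 0 genes were called lower and 0 higher (0% of 14958 in each direction) where a call needed a log2 difference beyond 0.5 and an adjusted p (Benjamini-Hochberg) under 0.05. The smallest adjusted p was 0.227. In the single fractions the same rule called 5.38% of genes lower and 6.62% higher in Input, and 10.2% lower and 7.2% higher in Polysome. At an unadjusted p under 0.05, 701 genes (4.69%) were lower and 388 (2.59%) were higher; these shares are the background for the lists below. With DESeq2's size factors (RLE) in place of TMM the same rule gave 567 lower and 504 higher, so that lower genes made up 52.9% in place of 64.4% of them. DESeq2 itself called 11 genes lower (0.0735%) and 18 higher (0.12%). Values below are estimates of single genes and counts over lists, and a p is named as unadjusted where it is.

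The change was therefore sought in gene groups, and the ribosomal proteins stood first. All lists of genes used here were written with earlier results of these data known. All 80 ribosomal protein genes were tested and all 80 had an estimate below 0, beside 8827 of the 14958 genes (59%). Their median change was -0.04 in Input and -0.85 in Polysome, and their median difference was -0.80, beside -0.06 over all genes tested. An unadjusted p under 0.05 with a lower ratio was found for 68 of 80, or 85%, beside 4.69% of all genes, and none passed the adjusted test. The large subunit (48 genes, median -0.79, 42 lower) and the small subunit (32 genes, median -0.82, 26 lower) had similar values. RNA was measured in bulk as a share of each library's reads, so a lower amount per cell and fewer cells with the mRNA cannot be told apart, nor can a fall of these mRNAs and a rise of the rest.

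In the share of all reads on genes, the ribosomal protein genes took 33.6, 32.9, 33.3 and 32.5% of the Input libraries Ctrl 1 to 4 and 35.9, 35.9, 35.2 and 35% of Input siRNAG5 1 to 4. In Polysome they took 23.4, 24.1, 18.6 and 20.8% of Ctrl and 19.6, 13.5, 13.4 and 19.8% of siRNAG5. The share was thus higher in every siRNAG5 library than in every Ctrl library in Input, while in Polysome the siRNAG5 shares were mostly lower, with overlap between Ctrl 3 (18.6%) and siRNAG5 1 and 4.

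Some TOP mRNAs were also followed by immunoprecipitation with Gemin5, and 7 of them are a list here. RPL3, a protein of the large subunit, had 7632, 7216, 7606 and 7466 CPM (TMM-scaled) in Input Ctrl 1 to 4 and 9283, 9218, 8667 and 8687 in Input siRNAG5. In Polysome it had 3451, 3811, 2919 and 3459 CPM in Ctrl and 2689, 2024, 1899 and 2822 in siRNAG5. RPL3 was therefore higher in every silenced Input library and lower in every silenced Polysome library. Its difference between the fractions was -0.79 ± 0.21 (SE, n = 4 libraries per group; edgeR unadjusted p = 0.0014, adjusted p = 0.41; DESeq2 adjusted p = 0.0069). RACK1, a protein of the small subunit that docks signalling kinases, was likewise higher in every silenced Input library, with 8528, 8254, 8659 and 8366 CPM in Input Ctrl and 11016, 11060, 9920 and 9768 in Input siRNAG5. Its Polysome values were 2389, 3514, 2663 and 3155 CPM in Ctrl and 2797, 2009, 1846 and 2418 in siRNAG5, which overlap, and its difference was -0.67 ± 0.23.

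Here and below, the lowest and highest member of a list are taken among genes with a mean log2 CPM of at least 1. RPS9, of the small subunit, had the lowest difference of its list, -1.0 ± 0.26 (edgeR unadjusted p = 0.0011, adjusted p = 0.39). Its Input values, 3249, 3552, 3390 and 3390 CPM in Ctrl and 3486, 3255, 3373 and 2975 in siRNAG5, overlapped. Its Polysome values did not, with 2193, 2586, 1593 and 1909 CPM in Ctrl and 1092, 766, 740 and 1383 in siRNAG5. RPL21, RPL32 and RPL35, all of the large subunit, had differences of -0.85 ± 0.29, -0.83 ± 0.30 and -0.84 ± 0.29. RPLP1, a protein of the ribosomal stalk, had -0.40 ± 0.32, the smallest of the immunoprecipitated set of 7. Of these 7, 6 were lower at an unadjusted p under 0.05 (median -0.83), beside 4.69% of all genes. The study turned to TOP mRNAs after seeing its results from these same Polysome libraries, so this count is a description only. RPL36A had the lowest estimate among large-subunit genes, -1.20 ± 0.43, and overlaps the annotated read-through gene RPL36A-HNRNPH2, so its counts are uncertain. It was read at a low level of 4.62 ± 0.994 CPM (SD, n = 4) in Input Ctrl, with overlap of the loading values. RPS2 (-0.22 ± 0.34) lay at the other end of the small subunit.

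Promoter sequences of RefSeq (GRCh38.p14) are shown for these mRNAs because a pyrimidine run at the start is what defines TOP mRNAs. Each line holds 8 bases before and 20 bases from the annotated start in transcript direction, with the unbroken pyrimidine run over the start in capitals.
RPL3 (chr22:39319604-39319631, minus strand): cgaccggCCTCTaccggcgggatttgat
RPL35 (chr9:124861938-124861965, minus strand): cctaCTTCCTCTTTCCCTCggagcgggc
RPLP1 (chr15:69452810-69452837, plus strand): cgcgagagCCCCTTTCCTCagctgccgc
RPS9 (chr19:54200850-54200877, plus strand): ttccgcgCCTCTTTCTCagtgaccgggt
RACK1 (chr5:181243887-181243914, minus strand): TTTTCTCTCTCTCTTTCactgcaaggcg
EEF2 (chr19:3985444-3985471, minus strand): tcagcgTTCTCTTCCgccgtcgtcgccg
The starts of 2 genes whose ratio was higher in siRNAG5 hold no such run. Most promoters do not meet the rule given below, so these 2 are examples only.
RYBP (chr3:72446604-72446631, minus strand): tcctcggaaggccaaaaagacaagcgaa
NRAS (chr1:114716752-114716779, minus strand): tagcgggcggggccggaagtgccgctcc
EEF2 encodes the elongation factor that moves the ribosome along the mRNA, RYBP a Polycomb protein and NRAS a small GTPase of the RAS family.

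A pyrimidine start was searched as a C at the annotated start followed by at least 4 bases that are each C or T, on the transcript strand only, and 1104 of 27305 RefSeq promoters (4.04%) have it. Of the genes tested, 10883 matched a RefSeq promoter by symbol. Outside the ribosomal proteins, the other TOP mRNAs and the snoRNA host genes, 522 genes with such a start had a median difference of -0.14 and 9.58% of them were lower at an unadjusted p under 0.05. The 10264 genes without it had a median of -0.05 and 3.79%. Of the 64 ribosomal protein genes matched, the 43 with this start had a median of -0.84 and the 21 without it -0.72. Of the TOP mRNAs printed above, RPL3 does not meet this rule, since its run ends after 4 pyrimidines counted from the annotated start, and the other 5 do. The annotated start may be some bases away from the one used in these cells, and a match in these letters is a description of the sequence only.

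The other TOP mRNAs, which encode elongation factors, initiation factor subunits and abundant RNA-binding proteins, had a median difference of -0.45 over 18 genes tested, of which 9 (50%) were lower at an unadjusted p under 0.05 and 17 had an estimate below 0. Their median change was 0.19 in Input and -0.35 in Polysome, and their median difference was -0.24 in set A alone, the Polysome libraries Ctrl 1 and 2 and siRNAG5 1 and 4 described below. EEF1D, a subunit of the complex that reloads elongation factor 1 with GTP, had 924, 967, 918 and 933 CPM in Input Ctrl and 962, 941, 915 and 801 in Input siRNAG5. In Polysome it had 429, 585, 433 and 533 CPM in Ctrl and 290, 239, 222 and 339 in siRNAG5, and the Polysome groups did not overlap. Its difference was -0.81 ± 0.20 (edgeR unadjusted p = 0.00058, adjusted p = 0.33; DESeq2 adjusted p = 0.022). EIF4B, an initiation factor that assists the helicase EIF4A, was the highest of the list with 0.11 ± 0.18.

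The snoRNA host genes are noncoding RNAs whose introns hold small nucleolar RNAs, and several of them start with a pyrimidine run as well. Their median difference was -0.58 over 24 genes, 22 of them below 0 and 7 (29.2%) lower at an unadjusted p under 0.05. The median was -0.24 with the Polysome libraries 1 and 2 of Ctrl and 1 and 4 of siRNAG5 alone (set A below) and -0.70 with the other Polysome libraries (set B), -0.37 without Polysome siRNAG5 2 and -0.38 without Polysome siRNAG5 3. SNHG3 had 105, 89.5, 90.7 and 95.9 CPM in Input Ctrl and 80.5, 78.0, 72.5 and 71.0 in Input siRNAG5, against 42.1, 52.7, 31.2 and 40.2 in Polysome Ctrl and 21.0, 16.5, 17.2 and 21.1 in Polysome siRNAG5. It was lower in both fractions without overlap, and more so in Polysome, with a difference of -0.80 ± 0.19 (edgeR unadjusted p = 0.00045, adjusted p = 0.30). SNHG19 had the lowest value of the list, -1.25 ± 0.38.

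**Figure D1:**
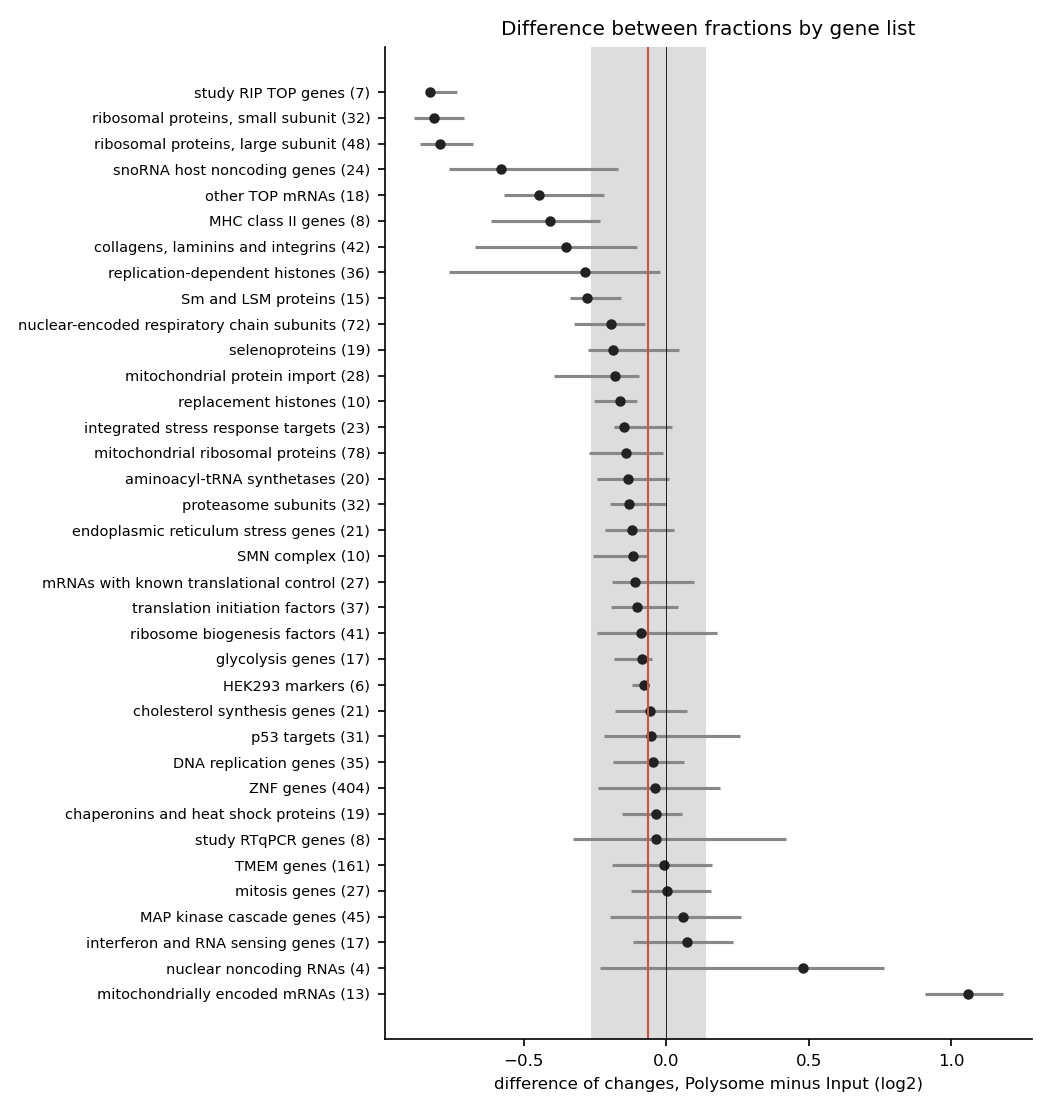
Difference between the fractions (log2, Polysome change minus Input change) for each gene list, with the number of genes tested in brackets. Points are medians over genes and bars the quartiles, the red line is the median of all 14958 genes (-0.06) and the grey band their quartiles; the ribosomal protein lists (-0.79 and -0.82) and the mitochondrially encoded mRNAs (1.06) lie farthest from it among lists of 5 or more genes outside the immunoprecipitated set.

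The loading of a gene in a pair of same-numbered libraries, that is log2 CPM in Polysome minus log2 CPM in Input, shows how far the libraries of a treatment spread. Averaged over the 80 ribosomal protein genes, loading was -0.92, -0.73, -1.47 and -1.07 in Ctrl 1 to 4 and -1.49, -2.32, -2.29 and -1.28 in siRNAG5 1 to 4. The value of siRNAG5 4 was above that of Ctrl 3, so the groups overlapped, and only 9 of the 80 genes had all siRNAG5 values below all Ctrl values, beside 2.39% of all genes. With the mean of the 4 Input libraries of the treatment in place of the same-numbered one, the values were -0.89, -0.71, -1.44 and -1.16 in Ctrl and -1.45, -2.28, -2.28 and -1.36 in siRNAG5, and of all genes 4.73% had every siRNAG5 value below and 4.09% above those of Ctrl.

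This spread follows a split of the Polysome libraries that crosses treatment. The first principal component of the Polysome libraries' deviations from their group means held 55.0% of their variance and parted Ctrl 1 and 2 and siRNAG5 1 and 4 (set A) from Ctrl 3 and 4 and siRNAG5 2 and 3 (set B). The sets were defined from the data and are not groups of the study. The labels give no batch, so what they are is not known. Set against the same 8 Input libraries, the median difference of the ribosomal proteins was -0.61 with the Polysome libraries of set A alone and -0.87 with those of set B alone, each set having 2 libraries of each treatment. The median over all genes was then 0.02 and 0.05. In set A 72 and in set B 80 of the 80 genes were lower at an unadjusted p under 0.05, beside 5.39% and 7.79% of all genes. The sets were cut along the largest spread of these same libraries, so the spread within a set is small by construction. P-values within a set or with the set as a term are therefore too small and lend no weight to the result. With the set as a term of the fit, which was chosen after the split had been seen, 72 of the 80 genes were called lower at the adjusted threshold and log2 limit, beside 1.89% of all genes. With 1 surrogate variable, likewise estimated from these libraries, 73 were called, beside 1.99%. With limma-voom and library quality weights 73 were called, beside 1.09%. DESeq2 called 2 of them, RPL3 and RPS9, and the fit with length and GC offsets 1, beside 0.0134% of all genes.

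Without Polysome siRNAG5 4 the median of the ribosomal proteins was -0.97 with 75 of 80 lower at an unadjusted p under 0.05 (7.2% of all genes), and without Polysome Ctrl 2 it was -0.68 with 53 lower (4.38%). The share of reads that aligned to several places, which these counts leave out, was 4.88 to 6.04% in the Input libraries and 21.2 to 42.4% in the Polysome libraries. Ribosomal protein genes have many processed pseudogenes that share their reads. The 806 processed pseudogenes tested had a median difference of -0.26, with 3.72% lower at an unadjusted p under 0.05, and medians of 0.16 in set A and -0.67 in set B. The part of unassigned reads in the result was not tested.

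**Figure D2:**
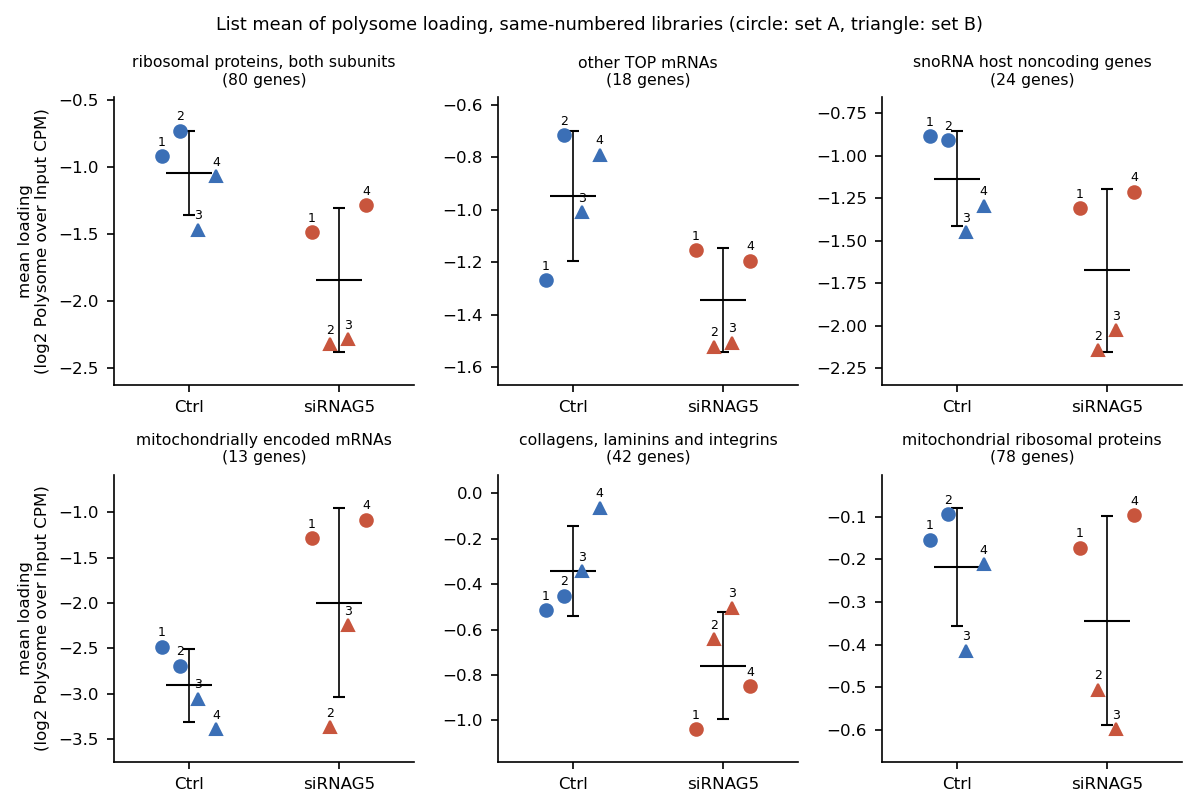
Mean polysome loading (log2 CPM in Polysome minus Input, same-numbered libraries) over the genes of 6 lists, 1 point per library pair with its replicate number; circles are Polysome libraries of set A and triangles of set B, bars are means and SD over 4 pairs. Ribosomal proteins and snoRNA hosts are lowest in siRNAG5 2 and 3, and the mitochondrially encoded mRNAs highest in siRNAG5 1 and 4.

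The 13 mitochondrially encoded mRNAs, which are translated inside mitochondria, had estimates on the other side. Their median change was -0.19 in Input and 0.84 in Polysome, with a median difference of 1.06, and 7 of 13 were higher at an unadjusted p under 0.05, beside 2.59% of all genes. Mean loading was -2.48, -2.69, -3.05 and -3.39 in Ctrl 1 to 4 and -1.29, -3.36, -2.25 and -1.09 in siRNAG5 1 to 4, so siRNAG5 2 was at the level of the lowest Ctrl pair. They took 1.28, 0.84, 0.756 and 0.512% of the reads of Polysome Ctrl and 2.90, 0.795, 1.62 and 2.71% of Polysome siRNAG5. MT-ATP8, a subunit of the ATP synthase, had the highest value, with 24.2, 13.5, 17.9 and 7.71 CPM in Polysome Ctrl and 71.1, 10.0, 13.9 and 56.4 in Polysome siRNAG5. Its 2 high libraries are those of set A, and its difference was 1.80 ± 0.61 over all libraries (edgeR unadjusted p = 0.0080, adjusted p = 0.50), 2.38 in set A and 0.53 in set B. MT-ND3, a subunit of complex I, had the lowest value, 0.46 ± 0.42. By the adjusted rule, 9 of the 13 were called higher with 1 surrogate variable (0.521% of all genes) and 6 with the set as a term (0.461%), and 0 with limma-voom (0.14%), DESeq2 (0.12%) or length and GC offsets (0.00669%). By the unadjusted p, 13 were higher in set A alone (6.3% of all genes) and 9 in set B alone (10.6%), 6 without Polysome Ctrl 2 (2.03%) and 3 without Polysome siRNAG5 4 (3.3%). The limit given above for the sets and the surrogate variable holds here as well. Nuclear genes for mitochondrial proteins did not share this. The 78 mitochondrial ribosomal proteins had a median of -0.14 and 0 genes with an unadjusted p under 0.05, although both fractions had negative median changes (-0.47 in Input and -0.56 in Polysome). Their ends were MRPL54 (-0.45) and MRPS30 (0.28). The 72 respiratory chain subunits had a median of -0.19 with 4 lower, from UQCRB (-0.62 ± 0.22) to NDUFC2 (0.51 ± 0.36), and the 28 import genes a median of -0.18 with 2 lower, from TOMM7 (-0.90 ± 0.34) to TIMM23B (0.22 ± 0.33). These 3 medians moved with single Polysome libraries, to -0.0402, -0.0865 and -0.0997 without siRNAG5 3. Values were closer to 0 also without siRNAG5 2, Ctrl 2 or Ctrl 1 for all 3. Without siRNAG5 4 the last 2 were -0.29 and -0.27, and without Ctrl 3 the respiratory chain was at -0.30.

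Changes of opposite sign in the fractions were rare. At an adjusted p under 0.05 in both fractions (edgeR), 4 of 14958 genes (0.0267%) changed in opposite directions, and at an unadjusted p under 0.05 in both, 31 did (0.207%). Of the 31, 17 were higher in Input and lower in Polysome and 14 were lower in Input and higher in Polysome. The first kind included 4 lncRNAs and had a median transcript GC content of 53.2%, and the second kind had none and 39.9%. Of the 14958 genes tested, 1290 were lncRNAs. The loading values of siRNAG5 and Ctrl did not overlap for 16 of the 17 and 11 of the 14. Of all genes, 2.39% had every siRNAG5 value below and 1.82% above those of Ctrl. The sign rule partly fixes the separation, since the genes were chosen by changes in the same libraries. With any 1 library left out, the count of 4 became 1 to 6. It was 1 without Input Ctrl 2, Polysome Ctrl 4 or Polysome siRNAG5 2, and 2 without Input siRNAG5 1 or Polysome siRNAG5 1.

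**Figure D3:**
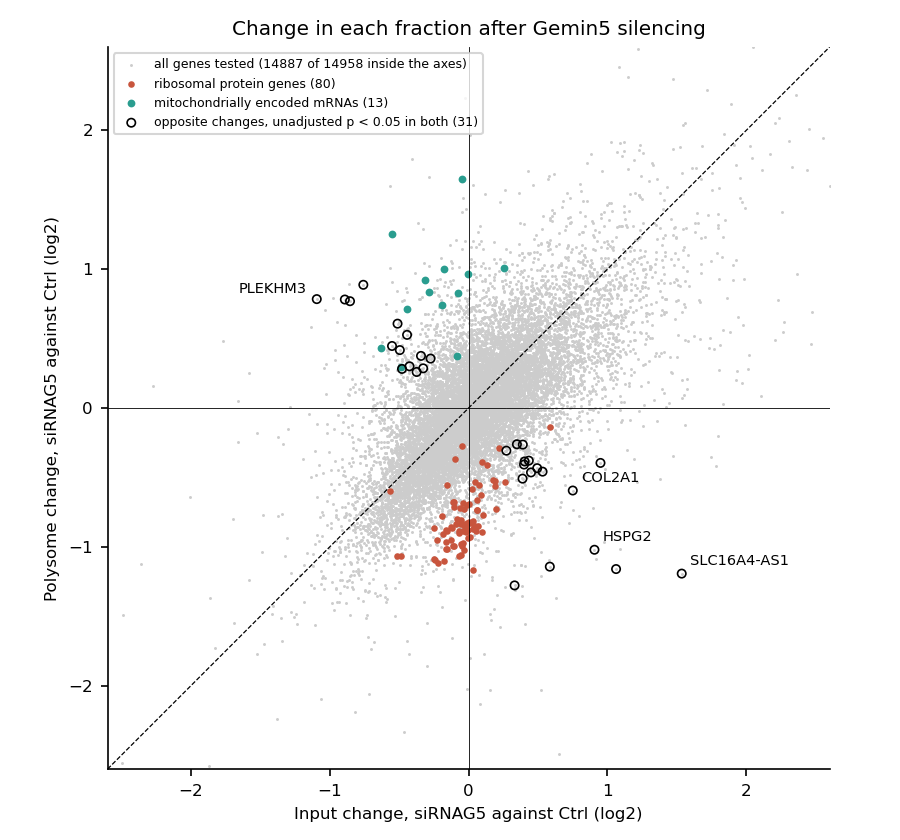
Log2 change (siRNAG5 against Ctrl) in Input on the horizontal and in Polysome on the vertical axis for each gene, with the line of equal change dashed. The 80 ribosomal protein genes lie below the line near 0 in Input, the 13 mitochondrially encoded mRNAs above it, and circles mark the 31 genes with changes of opposite sign, 4 of them named.

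COL2A1, the fibrillar collagen of cartilage, was 1 of the 4. It had 5.07, 5.09, 7.91 and 5.78 CPM in Input Ctrl and 10.9, 8.19, 11.3 and 9.68 in Input siRNAG5. In Polysome it had 3.83, 3.57, 4.02 and 4.80 CPM in Ctrl and 2.05, 2.27, 3.42 and 2.95 in siRNAG5. It rose by 0.75 in Input (edgeR adjusted p = 0.0096) and fell in Polysome (-0.59, adjusted p = 0.034), with no overlap of the groups in either fraction. HSPG2, the basement membrane proteoglycan perlecan, rose by 0.91 in Input (edgeR adjusted p = 0.041) from 0.721 ± 0.225 to 1.35 ± 0.205 CPM (SD, n = 4) and fell in Polysome (-1.02, adjusted p = 0.031) from 0.681 ± 0.154 to 0.322 ± 0.102 CPM. SLC16A4-AS1, an antisense noncoding RNA, changed by 1.54 in Input (edgeR adjusted p = 0.011) and by -1.19 in Polysome (adjusted p = 0.033), at levels of 0.298, 0.225, 0.800 and 0.758 CPM in Input Ctrl and 0.307, 0.423, 0.330 and 0.415 CPM in Polysome siRNAG5. PLEKHM3 was the one of the opposite kind. It had 1.09, 2.17, 1.24 and 1.80 CPM in Input Ctrl and 0.400, 1.34, 0.647 and 0.631 in Input siRNAG5, and in Polysome 2.17, 2.33, 2.07 and 1.97 in Ctrl and 4.05, 4.43, 3.46 and 2.77 in siRNAG5. It fell in Input (-1.09, edgeR adjusted p = 0.026) and rose in Polysome (0.78, adjusted p = 0.029). These levels are low, and of the 4 genes only COL2A1 had over 5 CPM in a group mean.

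At the wider rule, RYBP had 4.68, 4.86, 3.47 and 6.73 CPM in Input Ctrl, 2.66, 3.49, 3.44 and 4.16 in Input siRNAG5, 13.3, 11.5, 14.3 and 14.2 in Polysome Ctrl and 21.8, 20.2, 19.9 and 19.2 in Polysome siRNAG5. The Polysome groups were apart and the Input groups overlapped. Its difference was 1.12 ± 0.23 (edgeR unadjusted p = 0.00013, adjusted p = 0.23; DESeq2 adjusted p = 0.0032). NRAS had 34.1, 31.8, 26.7 and 31.2 CPM in Input Ctrl and 19, 25, 23.2 and 21.5 in Input siRNAG5, and 45.3, 38.9, 53 and 43.0 in Polysome Ctrl and 57.9, 50.3, 56.2 and 54.6 in Polysome siRNAG5. It fell in Input (-0.48, edgeR adjusted p = 0.010), and its Polysome change was 0.28 (adjusted p = 0.083), a difference of 0.76 ± 0.17. TRUB1, a pseudouridine synthase, had -0.50 in Input and 0.42 in Polysome.

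NEAT1 and PCLAF went the other way under the wider rule. NEAT1, the architectural RNA of nuclear paraspeckles, had 6.76, 4.42, 8.80 and 12.9 CPM in Input Ctrl and 12.4, 12.7, 11.4 and 12.6 in Input siRNAG5. In Polysome it had 11.2, 6.59, 6.47 and 9.52 CPM in Ctrl and 4.30, 2.5, 3.51 and 4.98 in siRNAG5. Its difference was -1.73 ± 0.37 (edgeR unadjusted p = 0.00015, adjusted p = 0.23). Its Input Ctrl level was highest in libraries 3 and 4, which also held the most liver reads of that group, as was that of MALAT1 (1.29, 0.674, 10.8 and 10.2 CPM), H4C11 (3.58, 3.82, 7.74 and 9.29) and SLC16A4-AS1, and the part of those reads in these differences was not tested. PCLAF, a partner of the replication clamp, rose by 0.95 in Input (edgeR adjusted p = 0.0054) and had -0.40 in Polysome (adjusted p = 0.12), with a difference of -1.35 ± 0.28.

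**Figure D4:**
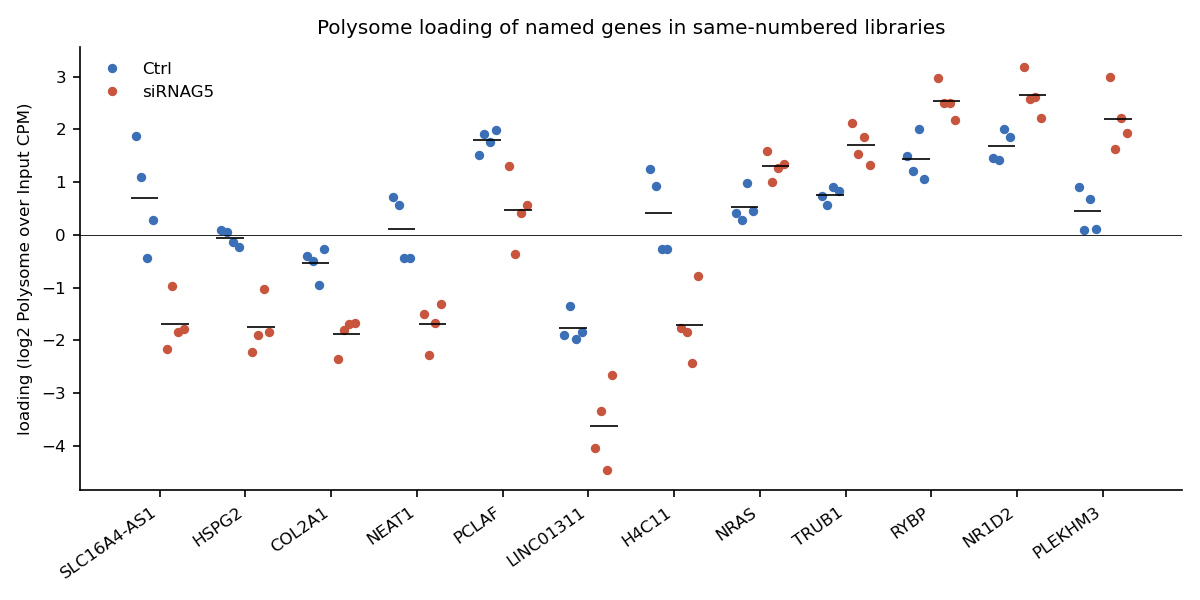
Polysome loading (log2 CPM in Polysome minus Input) of 12 genes in the 4 same-numbered library pairs of each treatment, with the mean as a line. The genes were picked from those with the smallest p of this difference or with opposite changes, so their separation largely follows from the choice. The siRNAG5 values lie entirely below the Ctrl values for the 7 genes on the left and above for the 5 on the right. Of all genes tested, 2.39% had every siRNAG5 value below and 1.82% above.

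The genes below are those with the smallest p at a mean log2 CPM of at least 1, a limit that HSPG2 and SLC16A4-AS1, among others, did not reach. Among the 12 lower genes so chosen, 4 were lncRNAs, beside 1290 of the 14958 genes tested at any level. ENSG00000268403, an lncRNA without a symbol on chromosome 11, had the smallest p (edgeR unadjusted p = 2.0e-05, adjusted p = 0.23). Its loading was -2.46, -2.67, -3.21 and -2.84 in Ctrl and -3.98, -4.53, -4.65 and -3.90 in siRNAG5. LINC01311 had 6.57, 5.99, 6.05 and 5.69 CPM in Input Ctrl and 6.93, 5.37, 6.18 and 5.58 in Input siRNAG5, which do not differ beyond their spread. In Polysome it had 1.67, 2.27, 1.45 and 1.49 CPM in Ctrl and 0.307, 0.423, 0.165 and 0.784 in siRNAG5. Its difference of -2.01 ± 0.37 lay in Polysome alone (-2.02, edgeR adjusted p = 0.00023, against -0.01 in Input).

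LAMB2, the laminin beta chain of basement membranes, showed the reverse. It rose from 7.06 ± 1.44 to 18.7 ± 2.45 CPM (SD, n = 4) in Input (1.40, edgeR adjusted p = 9.1e-05), while in Polysome it had 2.45 ± 0.733 and 2.59 ± 0.228 CPM (0.11, adjusted p = 0.74), a difference of -1.29 ± 0.27. TLN1, which links integrins to actin, PRPF8, the core protein of the spliceosome, and TBX2, a T-box repressor, had -0.99 ± 0.25, -0.65 ± 0.17 and -0.79 ± 0.20, each with a positive Input and a negative Polysome estimate. H4C11, a histone H4 gene, had loading values of 1.25, 0.92, -0.28 and -0.26 in Ctrl and -1.76, -1.84, -2.43 and -0.77 in siRNAG5. Its difference was -1.96 ± 0.40, the lowest of its list. COL2A1, PCLAF, NEAT1, SNHG3 and EEF1D, described above, made up the rest of the 12.

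The 12 higher genes with the smallest p at the same limit were all protein-coding, as were 12433 of the 14958 genes tested at any level. NR1D2, the clock repressor REV-ERB beta, had 5.77, 5.31, 4.71 and 4.45 CPM in Input Ctrl and 3.93, 5.30, 4.93 and 5.94 in Input siRNAG5. In Polysome it had 16.1, 14.4, 19.2 and 16.4 CPM in Ctrl and 36.6, 32.4, 30.9 and 28.0 in siRNAG5. It rose in Polysome (0.95, edgeR adjusted p = 0.00014) with an Input change of -0.01, a difference of 0.96 ± 0.20. PTP4A1, a membrane-bound tyrosine phosphatase, had 94.1 ± 11.6 CPM in Polysome Ctrl and 156 ± 8.93 in Polysome siRNAG5 (SD, n = 4) and a difference of 0.69 ± 0.16. NEK7, a mitotic kinase, CTDSP2, a phosphatase of RNA polymerase, and UBL3, a ubiquitin-like protein, likewise rose in Polysome (0.75, 0.63 and 0.59, edgeR adjusted p between 0.00072 and 0.005), with differences of 0.87 ± 0.20, 0.79 ± 0.18 and 0.90 ± 0.21.

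In a second pattern the Input level fell and the Polysome level did not pass the test. TFDP1, the dimerization partner of E2F factors, had -0.71 in Input (edgeR adjusted p = 0.00028) and -0.09 in Polysome (adjusted p = 0.55), a difference of 0.62 ± 0.15. ASB8, a substrate adaptor of ubiquitin ligases, ALG11, a mannosyltransferase of glycan synthesis, and CGGBP1, which binds CGG repeats, had Input changes of -0.59, -0.83 and -0.44 (edgeR adjusted p between 0.0017 and 0.0096) and differences of 0.68 ± 0.15, 0.99 ± 0.22 and 0.65 ± 0.15. PLEKHM3, RYBP and NRAS, described above, complete the 12. DESeq2 called all 3, and also NR1D2, PTP4A1, ASB8, CGGBP1 and TFDP1 among the 15 genes with its smallest p. For each of the 24 genes the loading values of siRNAG5 and Ctrl did not overlap, which gives an exact two-sided permutation p of 0.0286, the smallest that 4 against 4 values allow. This holds for 2.39% of all genes below and 1.82% above, and the 24 were chosen by the same difference.

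Among the other lists, genes of the cell surface and matrix stood next. Collagens, laminins and integrins had a median change of 0.57 in Input and 0.22 in Polysome and a median difference of -0.35, of which 9 of 42 (21.4%) were lower and 0 were higher by the unadjusted p. Without Polysome Ctrl 4 the median was -0.19, and in set A alone -0.23. ITGB1, the integrin beta 1 chain, lay at the other end with 0.49 ± 0.31. The MHC class II genes, which present antigen, had 0.93 in Input and 0.54 in Polysome and a median difference of -0.41, with 4 of 8 tested lower. Their mean log2 CPM was 1.56, 1.53, 2.09 and 1.94 in Input Ctrl 1 to 4, higher in the libraries 3 and 4 that hold the most liver reads, and 2.74 to 2.83 in Input siRNAG5. Their mean loading was 0.12, 0.16, -0.56 and -0.09 in Ctrl and -0.68, -0.75, -0.57 and -0.76 in siRNAG5, so that Ctrl 3 was at the level of siRNAG5 3, and the part of the liver reads was not tested. HLA-DRB1 had 7.16 ± 0.421 and 15.9 ± 1.07 CPM in Input and 5.81 ± 1.23 and 7.90 ± 0.416 CPM in Polysome (Ctrl and siRNAG5, SD, n = 4), a difference of -0.70 ± 0.20, and HLA-DMA had -0.18 ± 0.33. In both lists the median change was positive in both fractions and larger in Input.

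Replication-dependent histones, whose mRNAs mostly lack a poly(A) tail and so are recovered in part only in such libraries, had a median of -0.28, with 36 of 65 tested and 5 lower. This median was -0.03 with offsets for transcript length and GC content. It was -0.11 without Polysome Ctrl 2, -0.14 without Polysome siRNAG5 3, -0.47 without Input siRNAG5 2 and -0.66 without Polysome siRNAG5 1, and -0.47 and -0.45 with the replicate number or the treatment by number as a block. H2BC18 had the highest estimate, 0.43 ± 0.53. The replacement histones, which carry a tail, had -0.16 and 0 of 10 at an unadjusted p under 0.05 (H2AJ -0.38, H2AX 0.11). The 4 nuclear noncoding RNAs tested ran from NEAT1 to MALAT1 (0.98 ± 0.72).

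The machinery of translation outside the TOP mRNAs had medians between -0.15 and -0.09, beside -0.06 for all genes. Initiation factors had a median of -0.10, with 5 of 37 (13.5%, beside 4.69% of all genes) lower and 1 higher. EIF4G1, the scaffold of the cap-binding complex, had the lowest value (-0.72 ± 0.29, edgeR unadjusted p = 0.023) and EIF4E, the cap-binding protein, the highest (0.35 ± 0.16, unadjusted p = 0.038). Ribosome biogenesis factors had -0.09 with 2 of 41 lower and 1 higher, from RRP12 (-0.59 ± 0.23) to DDX21 (0.49 ± 0.35), and tRNA synthetases -0.14 with 1 of 20 lower, from VARS1 (-0.54) to FARSB (0.27). The list of mRNAs with known translational control had -0.11 with 1 of 27 lower, from CIRBP (-0.43 ± 0.15) to SLC11A2 (0.36 ± 0.17), and integrated stress response targets -0.15 with 0 of 23, from VLDLR (-0.48 ± 0.38) to ALDH1L2 (0.57 ± 0.39), although the latter list had median changes of 0.55 in Input and 0.51 in Polysome. These small medians depended on the libraries. In set B alone the initiation factors were at 0.0562 and the synthetases at 0.0276, in set A alone the stress response targets at 0.187, and the list of known translational control was above 0 in either set (0.0228 and 0.0283) and without Polysome Ctrl 1 (0.0141).

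The SMN complex, to which Gemin5 belongs, had a median of -0.12 with 0 of 10 at an unadjusted p under 0.05, from GEMIN8 (-0.31) to GEMIN2 (0.12). The Sm and LSM proteins had -0.28 with 0 of 15, lowest in SNRPD2 (-0.42 ± 0.24). The SMN complex median was -0.19 without Input siRNAG5 1, -0.18 without Polysome Ctrl 1 and 0.0229 in set B alone. The Sm and LSM median was -0.13, -0.14, -0.17 and -0.17 without Polysome siRNAG5 2, siRNAG5 3, Ctrl 1 and Ctrl 2, and -0.39 without Polysome siRNAG5 1. GEMIN5 itself, the target of the siRNA, had 15.9, 18.9, 16 and 20.7 CPM in Input Ctrl and 7.46, 6.51, 6.22 and 6.68 in Input siRNAG5, and 5.50, 7.21, 7.76 and 9.28 in Polysome Ctrl and 2.10, 3.08, 3.05 and 2.35 in Polysome siRNAG5. It fell to a like degree in both fractions (-1.41 and -1.48, edgeR adjusted p = 7.2e-05 and 4.4e-05), with a difference of -0.07 ± 0.23.

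Of the genes that the study followed by RTqPCR, those below had estimates of the same sign in both fractions. DDX39A, an RNA helicase of mRNA export, had -0.87 in Input and -1.25 in Polysome (difference -0.37 ± 0.22), RRS1, a ribosome assembly factor, -0.90 and -1.28 (-0.39 ± 0.23), and RBM3, a cold-inducible RNA-binding protein, -0.93 and -1.24 (-0.31 ± 0.17). RHEBL1, a GTPase of the mTOR pathway, had 0.97 and 1.31 (0.34 ± 0.30) and LINC00324 1.24 and 1.89 (0.65 ± 0.56). RRM2B, the p53-induced subunit of ribonucleotide reductase, had 5.47, 5.99, 4.89 and 6.44 CPM in Input Ctrl and 5.19, 6.44, 8.22 and 7.47 in Input siRNAG5, which overlap, and 11.7, 9.68, 13.2 and 11.3 in Polysome Ctrl and 24.7, 28.3, 27.2 and 21.5 in Polysome siRNAG5, which do not. Its difference was 0.88 ± 0.22 (edgeR unadjusted p = 0.00062, adjusted p = 0.33; DESeq2 adjusted p = 0.048). The 31 p53 targets had a median of -0.06 with 1 lower and 1 higher, PHLDA3 being the lowest (-0.40 ± 0.16).

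The remaining lists gave medians between -0.19 and 0.07 and few genes at an unadjusted p under 0.05. Proteasome subunits had -0.13 (1 of 32 lower, PSMA2 -0.50 to PSMD11 0.23), chaperonins and heat shock proteins -0.04 (0 of 19, HSPA1B -0.63 to HSPD1 0.27) and selenoproteins -0.19 (0 of 19, GPX4 -0.47 to TXNRD3 0.30). Endoplasmic reticulum stress genes had -0.12 (2 of 21 lower and 1 higher, HSP90B1 -0.55 to DNAJC3 0.54), cholesterol synthesis genes -0.06 (1 of 21 higher, CYP51A1 1.35, with SQLE at -0.36), and glycolysis genes -0.09 (1 of 17 lower, GAPDH -0.57). DNA replication genes had -0.05 (1 of 35 lower, CDT1 -0.50 to GINS1 0.42), mitosis genes 0.00 (0 of 27, CENPF -0.39 to TTK 0.43) and interferon and RNA sensing genes 0.07 (0 of 17, IFI35 -0.48 to EIF2AK2 0.44). The ZNF genes had -0.04 (16 of 404 lower and 10 higher, ZNF517 -0.79 to ZNF488 1.13), the TMEM genes -0.01 (10 of 161 and 8, TMEM74B -0.84 to TMEM178B 1.23) and the MAP kinase cascade 0.06 (2 of 45 and 1, MAP3K6 -0.52 to MAP3K2 0.51), with shares of 2.22 to 6.21% in either direction. Medians this close to 0 also moved, in set B alone to 0.0703 for the proteasome and 0.0873 for the endoplasmic reticulum stress genes, which were at 0.00499 without Polysome siRNAG5 1. Without Polysome Ctrl 2 the proteasome was at -0.0388, and without Polysome siRNAG5 2 the selenoproteins at -0.0404. Glycolysis genes were at -0.275 without Polysome Ctrl 1, -0.273 without Polysome siRNAG5 2 and -0.0136 without Polysome siRNAG5 4. In set B alone the MAP kinase cascade was at 0.220 and the interferon and RNA sensing genes at 0.210. The latter were at -0.0259 without Input Ctrl 4.

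Transcript features differed between genes with lower and higher ratios. Over protein-coding genes outside the ribosomal proteins, split in 5 equal classes of GC content of the canonical transcript, the median difference was 0.11, 0.02, -0.05, -0.13 and -0.19 at median GC contents of 38.3, 42.8, 48.3, 55.3 and 62.2%. In classes of 3′ UTR length (medians 228, 671, 1355, 2432 and 4663 nucleotides) it was -0.15, -0.11, -0.05, 0.02 and 0.06. Among genes of low GC content the median was -0.03 with a short and 0.09 with a long 3′ UTR, and among genes of high GC content -0.17 and -0.09, so each feature kept its direction at both levels of the other. Coding length showed no steady order (-0.09, -0.04, -0.01, -0.03 and -0.11). The order over GC classes was present in each set of Polysome libraries. Base composition and length can also change how RNA is recovered and amplified in a library, and their part was not tested beyond the fit with offsets for both, in which the ribosomal proteins had a median of -0.65. LncRNAs had a median of -0.11 over 1290 genes (at an unadjusted p under 0.05, 6.43% were lower and 1.16% higher) and protein-coding genes -0.06 over 12433. This order was not kept in both sets. In set A alone the medians were 0.04 for lncRNAs and 0.01 for protein-coding genes, and in set B alone -0.11 and 0.08.

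**Figure D5:**
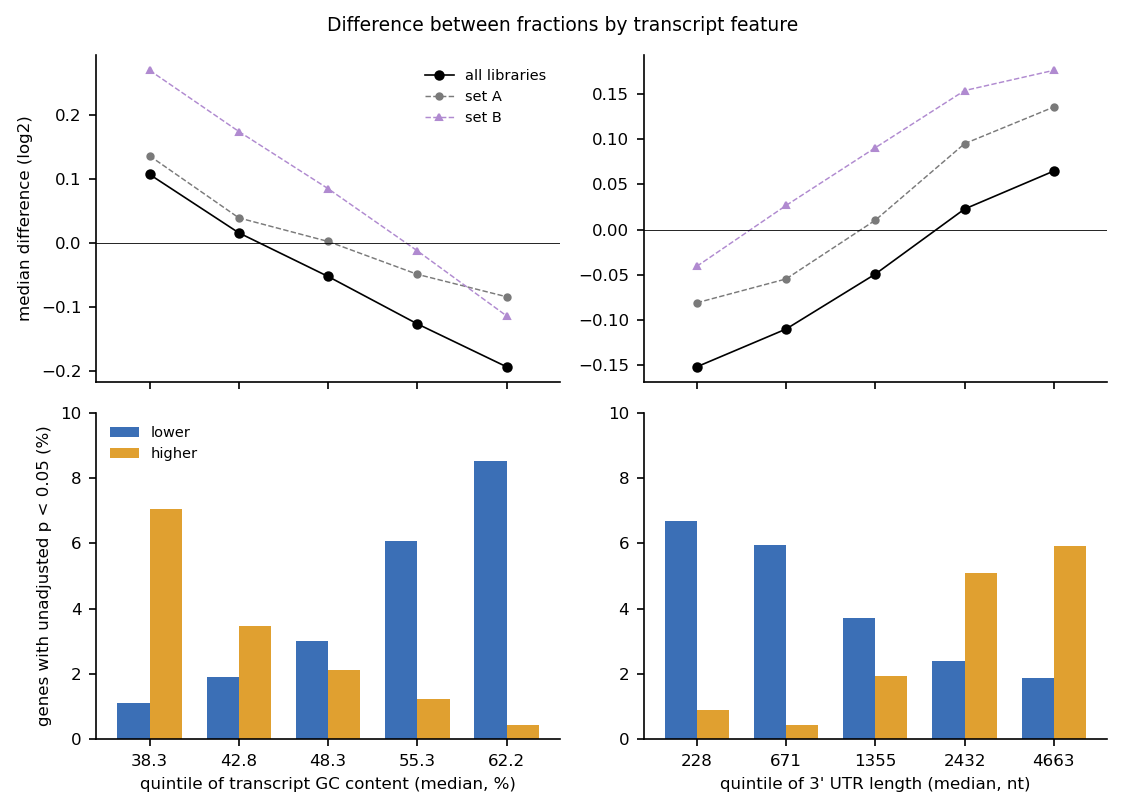
Median difference between the fractions (top, log2) and share of genes with an unadjusted p under 0.05 (bottom, %) for protein-coding genes outside the ribosomal proteins, in quintiles of transcript GC content (left) and 3′ UTR length (right). The median falls from 0.11 to -0.19 over GC quintiles and rises from -0.15 to 0.06 over 3′ UTR length quintiles; dashed lines use the Polysome libraries of set A or set B alone.

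The guide strand of the siRNA, from the sequence in the labels, is shown with its seed (bases 2 to 8) in capitals, since an siRNA can also act on other mRNAs through this stretch.
siRNAG5 guide: uUUCUCUUcuugauuaagg
The letters complementary to the seed (AAGAGAA) occur in the 3′ UTR of 3138 of 12433 protein-coding genes (25.2%). Outside the ribosomal proteins the median difference was -0.07 without a site, -0.01 with 1 and 0.04 with 2 or more, but genes with more sites have longer 3′ UTRs. Within quartiles of their 3′ UTR length it was -0.14, -0.09, -0.00 and 0.06 without a site and -0.16, -0.06, -0.01 and 0.06 with at least 1. A change of equal size in both fractions cancels in this difference. Without a site, the median changes were -0.05, 0.06, 0.04 and 0.01 in Input and -0.17, -0.03, 0.07 and 0.12 in Polysome. With at least 1 they were -0.14, -0.01, 0.01 and 0.02 in Input and -0.25, -0.07, 0.04 and 0.11 in Polysome. An action of the seed was not tested.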

How the data were processed

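The deposited files hold raw read counts per gene, 1 file per library, made by the authors from stranded libraries aligned to GRCh38 with STAR 2.5.3a and counted per gene with QoRTs (versions from the submitters' processing notes). Reads aligned to several places are left out of these counts. Genes with enough reads for filterByExpr were kept (14958 of 58302), scaled by TMM and fitted over all 16 libraries with edgeR 4.0.16 (quasi-likelihood, 4 groups), testing the Polysome change minus the Input change with Benjamini-Hochberg adjustment (p under 0.05 and log2 beyond 0.5). CPM are TMM-scaled and loading uses a prior count of 2. Alternatives were DESeq2 1.42.0, limma-voom 3.58.1, RLE, no filter, replicate blocks, 1 surrogate variable (sva 3.50.0), length and GC offsets and single libraries left out; the set of Polysome libraries was added after seeing the data. On simulated data, 61 of 100 genes planted at log2 1 and 96 of 100 at log2 2 were recovered, with 15 false calls among 14838 genes. The simulated counts were drawn independently for each gene and library, without the split of the Polysome libraries. Changes were planted only in genes with a mean log2 CPM of at least 1. These counts therefore do not give the recovery in the real data.

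Genes were named by rule: at a mean log2 CPM of at least 1, the 12 lower and 12 higher with the smallest p outside the liver, erythroid and brain lists and the ends of each list; at any level, opposite changes, the genes the study followed, and up to 15 DESeq2 calls. List ends within 0.1 of 0 and genes of the liver, erythroid and brain lists were not named, and TP53INP1 is left out because its standard error was unstable. The members and lists were chosen with earlier results of these data known. Depth was 11145324 to 24511299 reads on genes per library.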

Additional observations from a re-analysis of the deposited data

Results flagged for a closer look

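In 9 of 276 groups of 4 loading values, 1 library lay far from the other 3 by Dixon's test, which chance alone does in about 5% of groups. For the mean loading of the replication-dependent histones it was siRNAG5 3 (-0.4645) and for the p53 targets Ctrl 3 (0.3649). Among single genes it was siRNAG5 4 for H2AX (0.5179), ZNF488 (2.96) and MAP3K2 (1.401), siRNAG5 1 for PSMA2 (0.2628), siRNAG5 2 for LINC00324 (-0.7254), and Ctrl 1 for VLDLR (-1.407) and CENPF (-1.431).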

How the results depend on the processing

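Against 0 lower and 0 higher calls of the reported fit, DESeq2 gave 11 and 18, limma-voom 163 and 21, no filter on low counts 29 and 28, 1 surrogate variable 297 and 78, length and GC offsets 2 and 1, the set of Polysome libraries as a term 282 and 69, and the unadjusted p with the log2 limit 517 and 272. RLE size factors and no log2 limit gave 0 and 0. Leaving out 1 library gave 0 to 1 lower (1 without Polysome siRNAG5 4) and 0 higher. The 4 opposite changes became 18 with limma-voom, 48 with 1 surrogate variable and 45 with the set term (1 to 6 with 1 library left out), and the 31 at the unadjusted p became 75, 115 and 96 (22 to 42). The cause was not tested. Input and Polysome libraries of the same number had correlations of deviations of -0.27 to 0.26 (over 0.1 in 4 of 8 pairs, 4 of 8 best with their own number). The study describes fractionation of individual lysates, and these correlations cannot show whether equal numbers mark 1 lysate. With either replicate block 0 genes were called lower and 0 higher, and the block by number gave 4 opposite changes. Lower genes made up 64.4% of those at an unadjusted p under 0.05, but 52.9% with RLE, 54.0% with DESeq2, 51.4% with length and GC offsets, 46.1% in set A and 42.4% in set B. The median of the ribosomal proteins ranged from -0.97 to -0.64 with 1 library left out and was -0.65 with length and GC offsets. Set A alone turned RPS2 to 0.0142 and VLDLR to 0.187, and set B alone turned HLA-DMA to 0.0774, RRS1 to 0.0406, GEMIN5 to 0.0910 and DDX39A to 0.164. With 1 library left out, GEMIN5 ranged from -0.160 to 0.0501 (above 0 without Polysome Ctrl 4 and, at 0.0233, without Polysome siRNAG5 1) and H2AX from -0.000674 (without Polysome siRNAG5 4) to 0.205.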
